A study of Mus musculus with 20 samples.

Results

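The genes described here are 8 genes of the transforming growth factor β (TGF-β) pathway, namely the ligands Tgfb1, Tgfb2 and Tgfb3, the receptors Tgfbr1, Tgfbr2 and Tgfbr3, the latency protein Ltbp1 and the transcription factor Smad3. They were chosen by name, 8 of 18193 genes with a probe set (the group of short probes that an Affymetrix array sums into 1 value) annotated to exactly 1 gene. Each was read from its brightest such probe set over all arrays. All 8 lay above the expression filter, which left 12075 genes to test. Female C57BL/6 mice had lost their ovaries, and with them most circulating estrogen, at 8 weeks of age and carried an Alzet minipump for 4 weeks. Total RNA of the heart ventricle was then measured on 20 arrays, 5 per group. One group received 16α-LE2, an estrogen receptor α agonist by its label, and another 17β-estradiol, which activates receptors α and β (called estradiol here). A group titled beta has a treatment label that names a control solution, and is called the beta-titled group. The remaining group received placebo. All 4 groups were ovariectomized, doses are not given in the labels, and by its title the series concerns the role of estrogen receptor α in cardiac glucose uptake.

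TGF-β ligands are secreted as latent complexes, which binding proteins such as Ltbp1 hold in the extracellular matrix until the ligand is released. The free ligand binds the type II receptor kinase Tgfbr2, which recruits and phosphorylates the type I receptor kinase Tgfbr1, and Tgfbr1 in turn phosphorylates Smad2 and Smad3. These enter the nucleus with Smad4 and act on target genes, among them collagen genes. In the heart the pathway is best known for the activation of fibroblasts and for the deposition of matrix.

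Promoter sequences are shown for the ligand Tgfb1 and for Tgfbr1 and Ltbp1, whose levels varied together over the arrays. Each is the 250 bases before an annotated transcript start, 5′ to 3′ on the gene's strand, from RefSeq on GRCm38.p6. Capitals mark a single arm of the estrogen response element, searched on both strands as GGTCA and TGACC.
Tgfb1, chr7:25686752-25687001, plus strand: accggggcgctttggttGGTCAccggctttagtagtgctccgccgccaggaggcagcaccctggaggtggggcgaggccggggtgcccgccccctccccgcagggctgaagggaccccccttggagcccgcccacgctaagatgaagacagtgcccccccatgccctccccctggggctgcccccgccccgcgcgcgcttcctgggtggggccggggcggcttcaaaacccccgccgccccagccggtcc
Tgfbr1, chr4:47352972-47353221, plus strand: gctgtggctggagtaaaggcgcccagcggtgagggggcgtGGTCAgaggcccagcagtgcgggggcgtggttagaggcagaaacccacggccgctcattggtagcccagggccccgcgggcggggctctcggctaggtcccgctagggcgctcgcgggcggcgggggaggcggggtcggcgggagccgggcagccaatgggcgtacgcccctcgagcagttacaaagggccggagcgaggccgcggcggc
Ltbp1, chr17:75005279-75005528, plus strand: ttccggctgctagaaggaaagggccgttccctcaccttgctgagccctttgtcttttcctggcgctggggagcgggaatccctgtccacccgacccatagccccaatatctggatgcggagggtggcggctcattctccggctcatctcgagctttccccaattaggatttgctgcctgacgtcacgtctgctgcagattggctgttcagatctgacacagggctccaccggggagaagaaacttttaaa
The arm began at position -233 from the start in Tgfb1 and at -210 in Tgfbr1, while the Ltbp1 window held none. Promoter windows were found for 6 of the 8 genes, 8 windows in all, because Tgfbr1 and Ltbp1 have more than 1. Of these windows 3 held an arm, and 35.2% of the 32851 promoter windows of all genes did. None of the 8 held the full element GGTCANNNTGACC, present in 0.0639% of all windows, or the palindromic Smad element GTCTAGAC, present in 0.167%. The Tgfb2 window held the TATA box TATAAA, as did 12.4% of all windows (either strand). A match to these letters is a description of the window and not evidence of binding.

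None of the 8 genes passed a Benjamini-Hochberg adjusted p of 0.05 in any of the 6 comparisons between groups, by limma over all tested genes. With 16α-LE2 against placebo 0 of 8 passed, where 0.224% of all tested genes did (27 genes), and their adjusted p ranged over 0.513 to 0.996. With estradiol against placebo 0 of 8 passed, as did 0 of all genes, and the adjusted p ranged over 0.499 to 0.986. For the beta-titled group against placebo 0 of 8 and 0 of all genes passed, with adjusted p of 0.771 to 0.997. At an unadjusted p under 0.05, 1 of the 8 was counted with 16α-LE2 (Ltbp1; 9.00% of all genes), 1 with estradiol (Tgfbr1; 9.61%) and 0 in the beta-titled group (5.70%). A moderated F test for any difference among the 4 groups gave adjusted p of 0.777 (Tgfbr1, Ltbp1 and Smad3) to 0.889 (Tgfbr3), and 0.157% of all genes passed it. Over all tested genes a 95% confidence interval, not adjusted over genes, reached a median of 0.209 log2 units to either side of the difference. Smaller changes were thus mostly not detectable even before adjustment, and larger ones could still fail the adjusted test. Tgfbr1 differed from placebo by -0.28 with 16α-LE2 and by -0.29 with estradiol and did not pass (limma adjusted p = 0.557 and 0.499). The precision is limited by 5 arrays per group. The labels do not say in so many words that samples came from separate animals, and p-values measure only the spread between these samples.

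One array bears on many of these values. Estradiol replicate 33 had Spearman correlations of 0.922 to 0.941 with the other arrays, which correlated at 0.978 to 0.992 among themselves. It held the highest or lowest value of all 20 arrays in 7 of the 8 genes, 2 highest and 5 lowest, and in 15 of their 21 probe sets. Placebo replicate 33 held the highest value in 3 of the 8 genes, Tgfbr1, Tgfbr2 and Ltbp1. Where leaving out either array moved an agonist's change against placebo markedly, the value without it is given. Levels are log2 values as deposited, and are not compared between genes, because probe sets differ in brightness.

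Tgfb1, the ligand best known as a driver of fibrosis (chr7:25687002-25705077), lay at 7.45, 7.49, 7.37, 7.45 and 7.43 in 16α-LE2 ventricles. It was 7.53, 7.42, 8.15, 7.42 and 7.46 in estradiol ventricles and 7.38, 7.67, 7.46, 7.31 and 7.48 in the beta-titled group, against 7.40, 7.41, 7.50, 7.35 and 7.49 in placebo ventricles. The groups overlapped, and only estradiol replicate 33 stood clear of the rest, at 8.15. The change with 16α-LE2 against placebo was 0.01 ± 0.10 log2 (SE; 95% interval -0.21 to 0.22; limma adjusted p = 0.996). With estradiol it was 0.16 ± 0.10 (interval -0.05 to 0.37; limma adjusted p = 0.506), and 0.0243 without estradiol replicate 33, so that array carried most of the estradiol value. The dimmer of the 2 Tgfb1 probe sets read 6.83 on that array and gave an estradiol change of 0.00 ± 0.077.

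Tgfb2, the ligand that depends most on the co-receptor Tgfbr3 (chr1:186622787-186709697), ranged over 7.65 to 7.98 with 16α-LE2, 7.72 to 8.14 with estradiol and 7.34 to 8.03 in the beta-titled group, against 7.70 to 8.02 with placebo. All 4 groups overlapped, and 1 array of the beta-titled group was lower than all others. The change with 16α-LE2 against placebo was -0.09 ± 0.11 log2 (SE; limma adjusted p = 0.882). The interval of the estradiol change was -0.23 to 0.22, centred near 0 (limma adjusted p = 0.986), and the Tgfb2 change was -0.0695 without estradiol replicate 33, its highest array at 8.14.

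Tgfb3, the remaining ligand (chr12:86056743-86079041), ranged over 7.40 to 7.56 with 16α-LE2, 7.23 to 7.70 with estradiol and 7.42 to 7.71 in the beta-titled group, against 7.53 to 7.66 with placebo. All 5 values with 16α-LE2 lay below the placebo mean of 7.60 ± 0.06 (SD, n = 5), although the groups overlapped. Its changes against placebo were -0.10 ± 0.08 log2 both with 16α-LE2 and with estradiol (SE; limma adjusted p = 0.749 and 0.549). The estradiol change was -0.03 without estradiol replicate 33, the lowest array for this gene at 7.23.

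**Figure D1:**
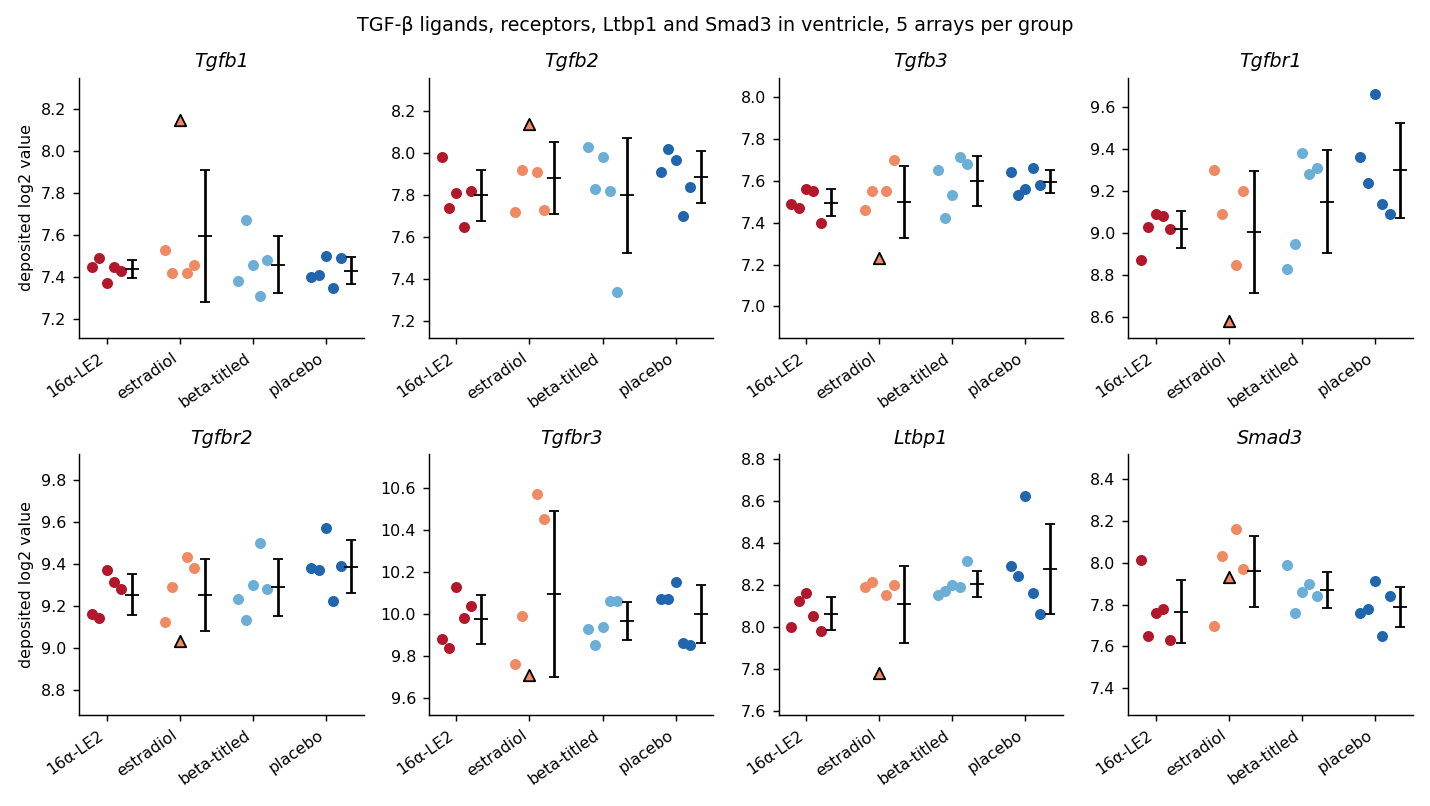
Deposited log2 values of the 8 genes (y axis, 1 panel per gene) on each of 5 arrays in the 16α-LE2, estradiol, beta-titled and placebo groups, with mean and SD beside the points and estradiol replicate 33 as an outlined triangle. That array lies apart from its group at 8.15 for Tgfb1 and at 7.78 for Ltbp1, and the groups overlap in every panel except 16α-LE2 against placebo for Tgfbr1.

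Tgfbr1, the type I receptor kinase also called ALK5 (chr4:47353222-47414926), had the largest difference from placebo among the 8 genes with either agonist. It lay at 8.87, 9.03, 9.09, 9.08 and 9.02 in 16α-LE2 ventricles and at 9.30, 9.09, 8.58, 8.85 and 9.20 in estradiol ventricles. It was 8.83, 8.95, 9.38, 9.28 and 9.31 in the beta-titled group, against 9.36, 9.24, 9.66, 9.14 and 9.09 in placebo ventricles. The highest 16α-LE2 value was just below the lowest placebo value, both 9.09 when rounded, so these groups did not overlap. That held for 1 of the 8 genes with 16α-LE2 against placebo, where 3.28% of all tested genes had it. In the other comparisons it held for 0 of 8, against 0.878% of all genes for estradiol and 0.845% for the beta-titled group against placebo, 0.754% for 16α-LE2 against estradiol, and 2.28% for 16α-LE2 and 0.398% for estradiol against the beta-titled group.

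The Tgfbr1 mean was 9.02 ± 0.09 with 16α-LE2 against 9.30 ± 0.23 with placebo (SD, n = 5 each), a difference of -0.28 ± 0.13 log2 (SE; 95% interval -0.56 to 0.00; limma adjusted p = 0.557). With estradiol it was 9.00 ± 0.29, a difference of -0.29 ± 0.13 (SE; interval -0.57 to -0.02; limma adjusted p = 0.499). Neither passed the test. Without placebo replicate 33, which had the highest value at 9.66, the differences were -0.19 with 16α-LE2 and -0.20 with estradiol. Without estradiol replicate 33 the estradiol difference was -0.19, over 1.5 times smaller (limma adjusted p = 0.885). The other 2 probe sets of Tgfbr1 were dimmer by more than 2 log2 units. They gave changes of -0.025 ± 0.111 and 0.08 ± 0.042 with 16α-LE2 against placebo (SE), and 0.128 ± 0.111 and 0.041 ± 0.042 with estradiol. In the first of them estradiol replicate 33 was the highest array at 7.8, and the second lay below the expression filter. The difference was thus seen in the brightest probe set only.

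Tgfbr2, the type II receptor kinase that binds the ligand (chr9:116087695-116175363), ranged over 9.14 to 9.37 with 16α-LE2, 9.03 to 9.43 with estradiol and 9.13 to 9.50 in the beta-titled group, against 9.22 to 9.57 with placebo. All 5 values with 16α-LE2 were below the placebo mean of 9.39 ± 0.13 (SD, n = 5), and the groups overlapped. The changes against placebo were -0.13 ± 0.10 log2 with 16α-LE2 and -0.14 ± 0.10 with estradiol (SE; limma adjusted p = 0.737 and 0.521). Placebo replicate 33 was the highest array for this gene and estradiol replicate 33 the lowest. Without placebo replicate 33 the Tgfbr2 changes were -0.0878 with 16α-LE2 and -0.0926 with estradiol, and without estradiol replicate 33 the estradiol change was -0.0841. The dimmer Tgfbr2 probe sets, below the expression filter, gave -0.001 ± 0.056 and 0.049 ± 0.082 with 16α-LE2 against placebo (SE). With estradiol they gave 0.058 ± 0.056 and 0.062 ± 0.082, so the lower values were seen in the brightest probe set only.

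Tgfbr3, or betaglycan, a co-receptor without kinase activity that presents ligand to Tgfbr2 (chr5:107106567-107289629), spread most within the estradiol group. Its levels there were 9.76, 9.99, 9.71, 10.57 and 10.45, an SD of 0.39. The SD was 0.12 with 16α-LE2 (9.84 to 10.13), 0.09 in the beta-titled group (9.85 to 10.06) and 0.14 with placebo (9.85 to 10.15). Estradiol replicates 34 and 35 were above every other array and replicates 29 and 33 below every other one, so the estradiol values lay on both sides of placebo. The estradiol change was 0.10 ± 0.13 log2 (SE; interval -0.18 to 0.37; limma adjusted p = 0.733), 0.19 without replicate 33 and -0.0227 without replicate 34. With 16α-LE2 it was -0.03 ± 0.13 (limma adjusted p = 0.982).

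**Figure D2:**
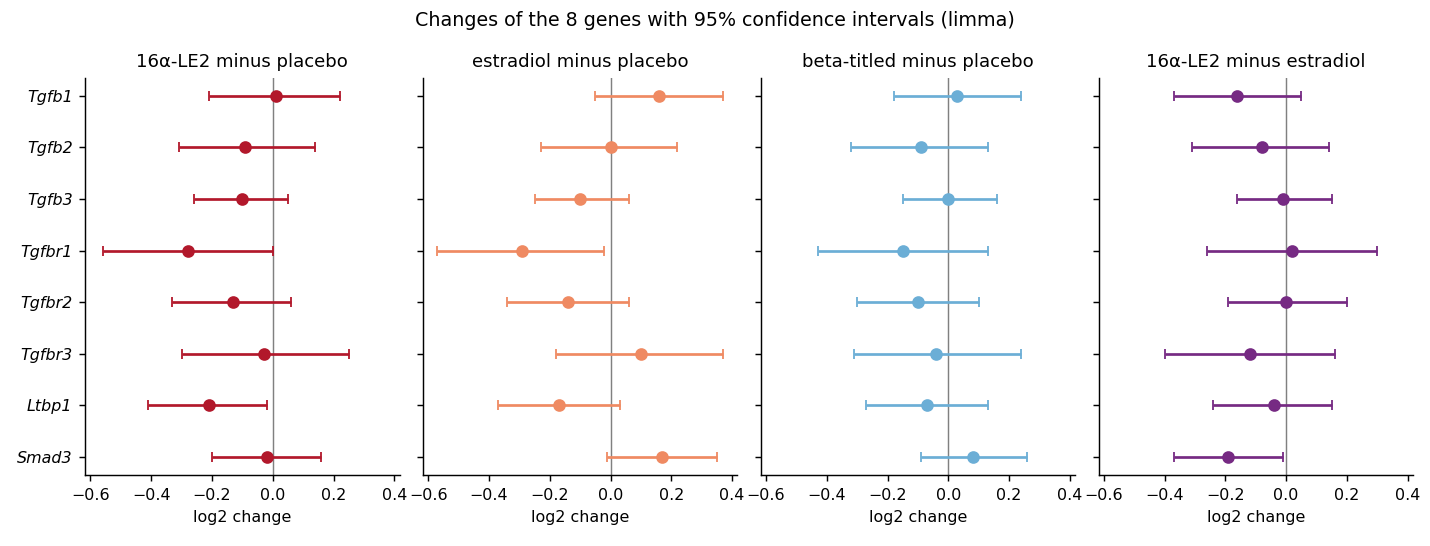
Log2 change of each of the 8 genes (rows) with its 95% confidence interval from limma, for 16α-LE2, estradiol and the beta-titled group against placebo and for 16α-LE2 against estradiol (panels). The intervals span 0 except those of Ltbp1 with 16α-LE2 (-0.41 to -0.02), Tgfbr1 with estradiol (-0.57 to -0.02) and Smad3 for 16α-LE2 against estradiol (-0.37 to -0.01). None of these passed after adjustment over all genes. The interval of Tgfbr1 with 16α-LE2 only just includes 0, with an upper end that rounds to 0.00 (limma unadjusted p = 0.0506).

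Ltbp1, the latent TGF-β binding protein that anchors latent ligand to the matrix (chr17:75005480-75392512), lay at 8.00, 8.12, 8.16, 8.05 and 7.98 in 16α-LE2 ventricles. It was 8.19, 8.21, 7.78, 8.15 and 8.20 in estradiol ventricles and 8.15, 8.17, 8.20, 8.19 and 8.31 in the beta-titled group, against 8.29, 8.24, 8.62, 8.16 and 8.06 in placebo ventricles. Every 16α-LE2 and every estradiol value was below the placebo mean of 8.27 ± 0.21 (SD, n = 5), but both groups overlapped placebo. The change with 16α-LE2 was -0.21 ± 0.10 log2 (SE; interval -0.41 to -0.02; limma adjusted p = 0.513), and -0.13 without placebo replicate 33, the highest array at 8.62. With estradiol it was -0.17 ± 0.10 (SE; limma adjusted p = 0.499). That value was -0.0866 without estradiol replicate 33 and -0.083 without placebo replicate 33. The 2 dimmer Ltbp1 probe sets, below the expression filter, gave changes of 0.057 ± 0.064 and 0.043 ± 0.06 with 16α-LE2 (SE).

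Smad3, the transcription factor that Tgfbr1 phosphorylates (chr9:63646766-63757994), lay at 8.01, 7.65, 7.76, 7.78 and 7.63 in 16α-LE2 ventricles and at 7.70, 8.03, 7.93, 8.16 and 7.97 in estradiol ventricles. It was 7.99, 7.76, 7.86, 7.90 and 7.84 in the beta-titled group, against 7.76, 7.78, 7.91, 7.65 and 7.84 in placebo ventricles. In the estradiol group 4 of 5 values were above the placebo mean, and all 4 groups overlapped. The change against placebo was 0.17 ± 0.09 log2 with estradiol (SE; interval -0.01 to 0.35; limma adjusted p = 0.499) and -0.02 ± 0.09 with 16α-LE2 (interval -0.20 to 0.16; limma adjusted p = 0.979). Leaving out estradiol replicate 33 gave an estradiol change of 0.18.

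The agonists were also set against each other, at the same duration and at doses the labels do not give. None of the 8 genes passed, and 0.0166% of all genes did (2 genes). Smad3 averaged 7.77 ± 0.15 with 16α-LE2 and 7.96 ± 0.17 with estradiol (SD, n = 5 each), a difference of -0.19 ± 0.09 log2 (SE; interval -0.37 to -0.01; limma adjusted p = 0.875). It was the only one of the 8 with an unadjusted p under 0.05, as were 5.18% of all genes. The dimmer Smad3 probe sets, below the expression filter, gave 0.006 ± 0.068 and 0.123 ± 0.057 for 16α-LE2 against estradiol (SE). The lower Smad3 value was thus seen in the brightest probe set only. The intervals were -0.37 to 0.05 for Tgfb1, -0.40 to 0.16 for Tgfbr3 and -0.26 to 0.30 for Tgfbr1. These allow differences of either sign for the last 3 genes and do not show that the agonists act alike. The Tgfb1 difference of -0.16 was -0.0188 without estradiol replicate 33. Against the beta-titled group 0 of 8 passed with 16α-LE2, where 0.174% of all genes did, and 0 of 8 with estradiol, where 0 of all genes did. The lowest adjusted p there was 1 with 16α-LE2 and 0.926 with estradiol, and no gene had an unadjusted p under 0.05, against 5.59% and 3.83% of all genes.

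As a group, 7 of the 8 genes were below placebo and 1 above with 16α-LE2, at a median change of -0.10 log2, where the median of all tested genes was -0.028. With estradiol 5 were below and 3 above (median -0.05, all genes -0.028). In the beta-titled group 5 were below and 3 above (median -0.05, all genes -0.039). These 3 comparisons share the placebo arrays. The 3 receptors were all below placebo with 16α-LE2 and in the beta-titled group, and none of these values passed the test. These counts depend on the scaling, on the choice of probe set, on a replicate block and on 1 array. Averaging all probe sets of a gene left 6 of 8 genes below placebo with 16α-LE2, at a median of -0.03. It left 3 of 8 below in the beta-titled group, at a median of 0.01. The replicate block left 5 of 8 genes and 2 of 3 receptors below placebo with 16α-LE2, and 6 of 8 and 3 of 3 in the beta-titled group. With 16α-LE2, 5 of the 8 genes and 2 of the 3 receptors were below placebo under quantile normalization, under median centring and without placebo replicate 33, where Tgfbr3 was slightly above it (0.0922, 0.0192 and 0.0116 log2). In the beta-titled group 3 of the 8 genes and 1 of the 3 receptors were below placebo under quantile normalization, and 4 of 8 and 2 of 3 both under median centring and without placebo replicate 33.

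**Figure D3:**
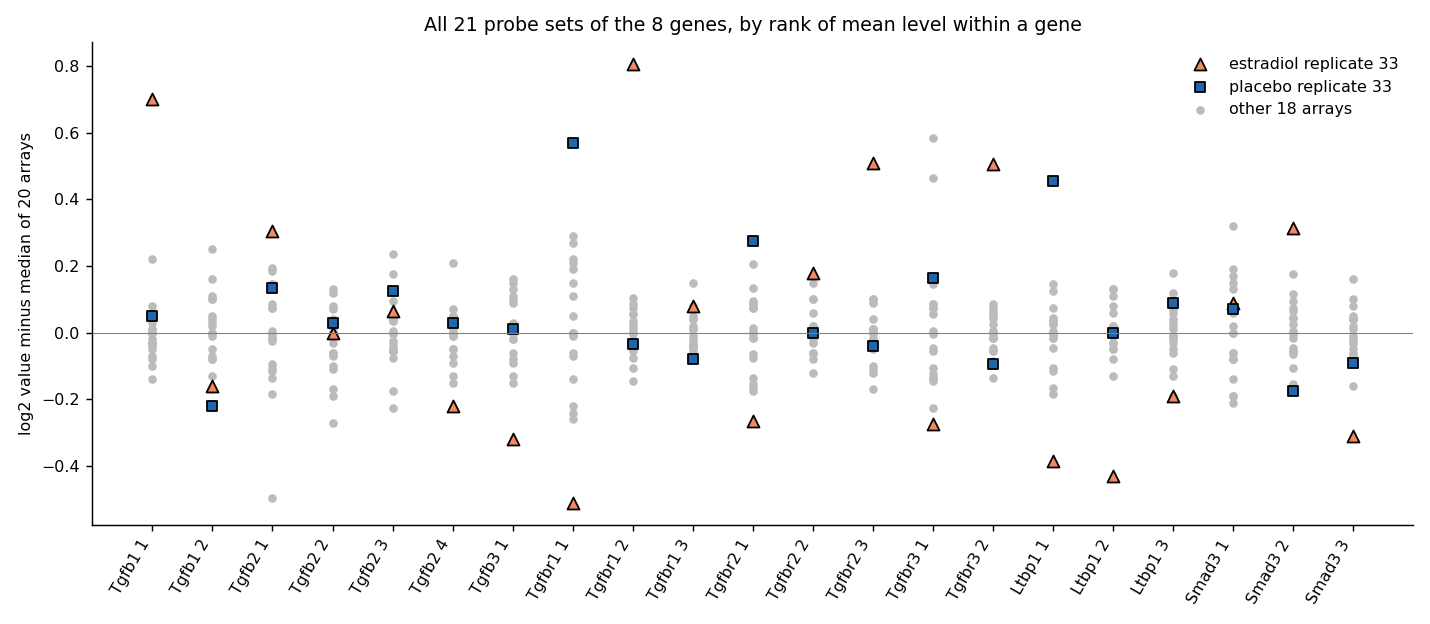
Each of the 21 probe sets of the 8 genes (x axis, numbered by brightness within a gene) on all 20 arrays, as log2 value minus the median of the 20 arrays (y axis), with estradiol replicate 33 as triangles and placebo replicate 33 as squares. Estradiol replicate 33 is the highest or lowest array in 15 of the 21, high in some probe sets of a gene and low in others, as for Tgfbr1, where it read 8.58 in the brightest and 7.80 in the next.

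The probe sets of a gene often gave different values on the same array, which the plot of all 21 probe sets shows. For Tgfbr1 estradiol replicate 33 was the lowest array in the brightest probe set and the highest in the next one, and for Tgfbr3 it likewise read 9.71 and 7.79. Of the 13 dimmer probe sets, 5 lay above the expression filter. Where all probe sets of a gene were averaged, the change with 16α-LE2 against placebo was -0.0742 for Tgfbr1 and -0.0376 for Ltbp1.

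Over the 20 arrays the levels of Tgfbr1 and Ltbp1 went together most closely among the 8 genes (Spearman 0.82, Pearson 0.84; Spearman 0.79 without estradiol replicate 33). Tgfbr2 and Tgfbr3 followed (Spearman 0.80, Pearson 0.68), and Tgfb1 and Tgfb3 ran opposite to each other (Spearman -0.53, Pearson -0.76; Spearman -0.45 without that array). These are descriptions over arrays that share group and array quality, given with no test. Among all tested genes, those most like each of the 8 by Spearman correlation over the 20 arrays were as follows. For Tgfb1 they were Glce (0.85), Atxn7l1 (0.81) and 9230112D13Rik (0.79). Tgfb2 was closest to Loxl1, a lysyl oxidase-like enzyme that cross-links matrix (0.77), Crim1 (0.75) and Fam168a (0.69). For Tgfb3 they were Jam3, Mtch1 and Def8 (0.83 each). Tgfbr1 was closest to Bpnt2 (0.94), Pank3 and Mfsd14a (0.93 each), and Ltbp1 also to Bpnt2 (0.92), then Eid1 and Fam172a (0.87 each). Tgfbr2 was closest to Nudt19 (0.88), Adck1 and Cnn3 (0.87 each), and Tgfbr3 to Stt3b (0.89), Celf2 (0.86) and Lamp1 (0.84). For Smad3 they were Tns3 (0.92), Klhl30 (0.83) and Dguok (0.78). Without estradiol replicate 33, all 3 genes were retained for Tgfbr3, 2 of 3 for Tgfb1, Tgfb3, Tgfbr1 and Smad3, and 1 of 3 for Tgfb2, Tgfbr2 and Ltbp1. By Pearson correlation the genes closest to Tgfbr3 were instead Vcl (0.87), Fig4 (0.85) and Rpn2 (0.84), and those of Tgfb3 and Ltbp1 were all other genes too. Glce stayed for Tgfb1, Loxl1 and Fam168a for Tgfb2, Pank3 for Tgfbr1, Nudt19 for Tgfbr2, and Tns3 and Klhl30 for Smad3.

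The other genes of the pathway were taken from lists of 83 symbols, of which 63 were tested. These lists were chosen with earlier results of these data known, so their shares beside those of all genes are descriptions and not a test. With 16α-LE2 against placebo 0 rose and 1 fell (1.59% called), where 0.224% of all tested genes were called. An unadjusted p under 0.05 was found for 16 of the 63, against 9.00% of all genes, and their median change was -0.103 log2, against -0.028 for all genes. With estradiol 0 passed and 8 had an unadjusted p under 0.05 (9.61% of all genes), and in the beta-titled group 0 passed and 2 did (5.70% of all genes). The gene that fell was Col3a1, a fibrillar collagen known to respond to TGF-β. It lay at 9.55, 9.12, 8.86, 8.75 and 9.09 in 16α-LE2 ventricles and at 10.21, 10.40, 10.03, 10.11 and 10.22 in estradiol ventricles. It was 10.99, 10.87, 10.78, 10.34 and 10.24 in the beta-titled group, against 11.09, 10.65, 11.05, 10.05 and 9.93 in placebo ventricles. The 16α-LE2 values were below those of every other group. Col3a1 was 2.79-fold lower than with placebo (log2 change -1.48 ± 0.20 SE, limma adjusted p = 0.0011) and 2.97-fold lower than in the beta-titled group (limma adjusted p = 0.000419). Against estradiol it did not pass (limma adjusted p = 0.0501).

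Of the 20 tested genes known to respond to TGF-β, 15 were below placebo and 5 above with 16α-LE2 (median -0.19 log2, against -0.028 for all genes), and Col3a1 alone passed. An unadjusted p under 0.05 was found for 8 of the 20 with 16α-LE2 against placebo (9.00% of all genes), for 11 against estradiol (5.18%) and for 9 against the beta-titled group (5.59%). With estradiol against placebo 10 were below and 10 above (median -0.01) and 5 had such a p (9.61% of all genes). With the beta-titled group likewise 10 were below and 10 above (median 0.00) and 0 had one (5.70%). Tgfbi, a matrix protein induced by TGF-β, had the smallest p with estradiol, at -0.40 ± 0.14 log2 (SE; limma adjusted p = 0.499). Lox, which cross-links collagen, had it in the beta-titled group, at -0.34 ± 0.20 (limma adjusted p = 0.707).

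The list of other Smads holds signal carriers of the TGF-β family and also the inhibitory Smad6 and Smad7. In each of the 3 comparisons with placebo, 6 of its 6 tested genes were below placebo. Their medians were -0.18 log2 for 16α-LE2, -0.15 for estradiol and -0.12 for the beta-titled group. The medians of all genes were -0.028, -0.028 and -0.039 in that order, and the 3 comparisons share 1 placebo group. None passed, and 3 of the 6 with 16α-LE2, 0 with estradiol and 0 in the beta-titled group had an unadjusted p under 0.05 (9.00%, 9.61% and 5.70% of all genes). The smallest p was that of Smad1, a mediator of bone morphogenetic protein signals, with 16α-LE2 (-0.38 ± 0.14 SE; limma adjusted p = 0.349) and with estradiol (-0.26 ± 0.14; limma adjusted p = 0.499). Without placebo replicate 33 the Smad1 changes were -0.2 with 16α-LE2 and -0.0867 with estradiol. In the beta-titled group it was that of Smad4, the partner of all signal-carrying Smads (-0.19 ± 0.11; limma adjusted p = 0.707). For the lists of other pathway genes and markers, counts and medians were taken from deposited values of all arrays and not recomputed otherwise. Over all genes, an unadjusted p under 0.05 was found for 1087 with 16α-LE2, 1161 with estradiol and 688 in the beta-titled group against placebo. Under quantile normalization these were 948, 1064 and 243, and without placebo replicate 33 they were 761, 626 and 234.

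Among 11 tested genes of latency and activation, Itgb1, the β1 integrin chain, had the smallest p in all 3 comparisons. Its change was -0.47 ± 0.15 log2 with 16α-LE2 (SE; limma adjusted p = 0.233), -0.39 ± 0.15 with estradiol (0.499) and -0.31 ± 0.15 in the beta-titled group (0.707). Of 15 inhibitors and adaptors, 12 were below placebo in each comparison (medians -0.11, -0.09 and -0.09, against -0.028, -0.028 and -0.039 for all genes) and none passed. Fkbp1a, the immunophilin that binds type I receptors, differed by -0.24 ± 0.11 with 16α-LE2 and by -0.19 ± 0.11 in the beta-titled group, and Usp15, a deubiquitinase of the pathway, by -0.33 with estradiol (limma adjusted p of 0.496, 0.707 and 0.499). Of 10 other receptors of the family none passed. Bmpr1a, a type I receptor of bone morphogenetic proteins, differed by -0.32 ± 0.13 both with 16α-LE2 and in the beta-titled group, and the type II receptor Bmpr2 by -0.23 ± 0.13 with estradiol (limma adjusted p of 0.415, 0.707 and 0.499). Of 6 other ligands none passed, and the smallest p belonged to Bmp6 with 16α-LE2 (-0.16), Bmp4 with estradiol (-0.16) and Gdf11 in the beta-titled group (0.05).

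**Figure D4:**
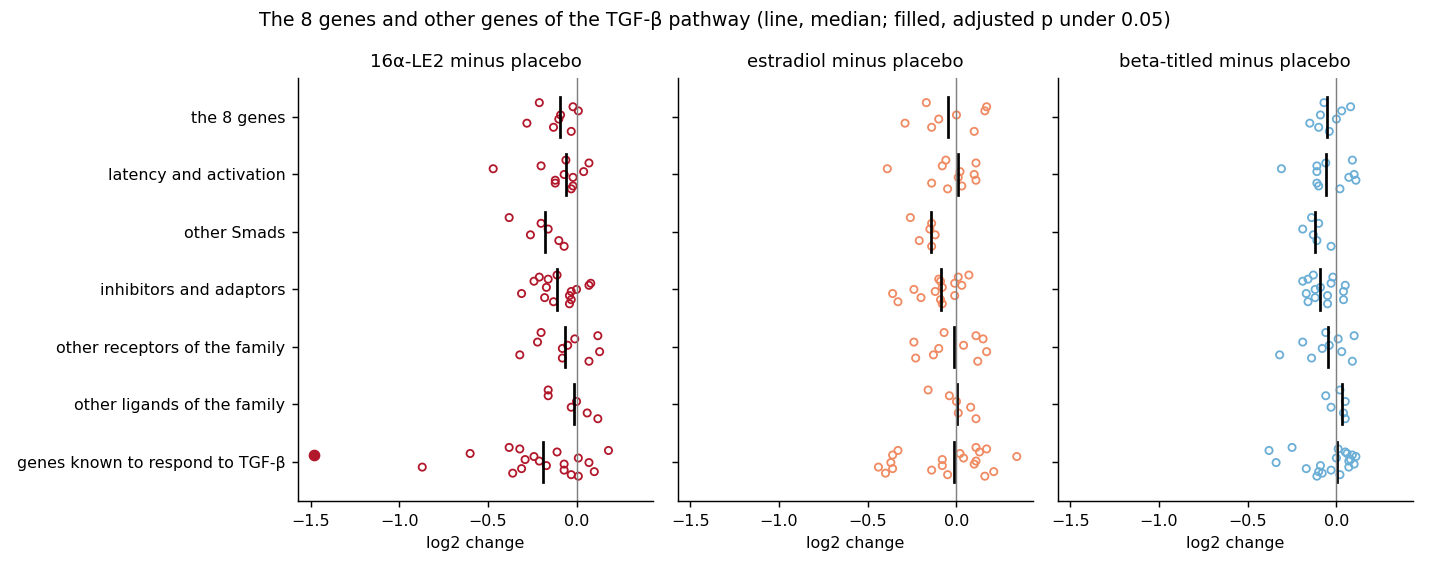
Log2 change against placebo (x axis) of the 8 genes and of 6 lists of other pathway genes (rows) with 16α-LE2, estradiol and in the beta-titled group (panels). Each circle is a gene and each line a median, and the single filled circle is Col3a1, the only gene with an adjusted p under 0.05.

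The ventricle label was checked against markers. All 9 ventricular cardiomyocyte markers lay above the filter, with mean levels of 13.75 to 14.15 over the arrays. The mean level of 5 atrial markers varied between arrays, from 8.25 to 10.79, and that of 9 fibroblast markers was 10.20 to 10.30 with 16α-LE2, 10.39 to 10.55 with estradiol and 10.34 to 10.60 in the beta-titled group, against 10.19 to 10.75 with placebo. With 16α-LE2 against placebo 8 of 9 fibroblast markers and 8 of 8 endothelial markers were lower, each list at a median of -0.31 log2 (all genes -0.028), and 0 of either passed the test. An unadjusted p under 0.05 was found for 5 of the 9 and 7 of the 8 (9.00% of all genes). The fibroblast list shares Col1a1 and Col1a2 with the genes known to respond to TGF-β, and Dcn with the inhibitors and adaptors. Some pathway lists also share genes, such as Smad7 and Thbs1, so the counts of different lists are not independent. Endothelial markers were below placebo in 7 of 8 genes with estradiol (median -0.11) and in 8 of 8 in the beta-titled group (median -0.20), and the atrial markers were above it in 5 of 5 with estradiol (median 0.31), with none passing. The endothelial mean level was 9.68 to 10.08 with 16α-LE2, 9.93 to 10.34 with estradiol and 9.93 to 10.24 in the beta-titled group, against 10.05 to 10.42 with placebo. The fibroblast median was -0.03 with estradiol and -0.08 in the beta-titled group (all genes -0.028 and -0.039). With 16α-LE2 against placebo the fibroblast and endothelial medians had the same sign as the differences of Tgfbr1, Ltbp1 and Col3a1. The part of these cells in those values was not tested. In ventricle RNA fewer cells of a type and less RNA per cell cannot be told apart. Of 5 tested markers of red blood cells and platelets 5 were above placebo with 16α-LE2 (median 0.26), and 1 rose, Slc4a1, the anion exchanger of the red cell membrane, named after its values were seen. Slc4a1 averaged 7.82 ± 0.25 with 16α-LE2 against 7.25 ± 0.18 with placebo (SD, n = 5 each), a change of 0.57 ± 0.11 log2 (SE; limma adjusted p = 0.0255). The mean level of these 5 markers was 8.17 to 9.63 with 16α-LE2, 8.05 to 8.81 with estradiol and 8.29 to 8.82 in the beta-titled group, against 8.04 to 8.73 with placebo, and their part in the results was not tested. No marker of mesothelium, 0 of 4, was above the filter.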

How the data were processed

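Biotin-labelled cRNA from 100 ng total RNA of each of 20 ventricle samples was hybridised to Affymetrix mouse arrays, per the labels. The authors deposited log2 values for 45101 probe sets. The base was read from their range of 5.07 to 15.31, and the authors' software and normalization are not given in sources used here. Genes were named only from the 34945 probe sets with 1 symbol in the platform annotation (932 had several and 9160 none, and 64 were controls). Of these, 34741 matched the GRCm38.p6 gene table, which gave the coordinates and changed no symbol.

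The brightest probe set stood for a gene, and genes were tested where its mean exceeded the median probe set mean (6.93). One limma 3.58.1 model in R 4.3.3 held all arrays (group means, eBayes with intensity trend), with Benjamini-Hochberg adjustment over 12075 genes and a threshold of 0.05. Dimmer probe sets were read from a fit over all probe sets. The fit was tested on simulated data. Figures used matplotlib 3.10.9.

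The members and lists were chosen with earlier results of these data known. Named were the 8 genes, the 3 genes most like each, other pathway genes called in a comparison, and per list the gene of smallest p against placebo in each comparison. Replicate numbers recur across groups, but same-numbered samples did not deviate together (median correlation -0.02 over 17 pairs, 6 of them over 0.1, against 0.009 over 133 other pairs), so they were not treated as pairs. Alternatives covered the filter, probe set averaging, scaling, array weights, 2 groups only, the intensity trend, a replicate block and leaving out each array.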

Additional observations from a re-analysis of the deposited data

Results flagged for a closer look

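A gap test for a single far value (Dixon's, at its 95% critical value of 0.71 for 5 arrays) was applied to each of the 8 genes in each of 4 groups, 32 tests in all, and chance alone flags about 1 in 20. Tgfb1 in estradiol replicate 33 was 8.15, where the other estradiol arrays lay between 7.42 and 7.53. Ltbp1 on the same array was 7.78, with the others between 8.15 and 8.21. Tgfbr1 in 16α-LE2 replicate 29 was 8.87, with the others of its group between 9.02 and 9.09. Over all 21 probe sets, 84 tests, 9 values stood out in this way, and 5 of them were on estradiol replicate 33.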

How the results depend on the processing

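No alternative brought any of the 8 genes past the threshold in any comparison. Over 29 settings, 9 of them other than leaving out an array, the lowest adjusted p of the 8 genes was 0.112 (Ltbp1, 16α-LE2 against placebo, array weights). Tgfb1, Tgfb2, Tgfb3 and Smad3 have no value under the stricter filter. Of 48 changes, 24 had 1 sign throughout, among them Tgfbr1 and Ltbp1 lower than placebo with either agonist, and Col3a1 passed under all 29 settings. Many of these settings cannot alter the sign of a change. The filters, 2 groups only, the intensity trend and leaving out an array of a group not compared keep the same group means. Itgb1 passed with 16α-LE2 under array weights alone (-0.44, limma adjusted p = 0.0409). Counts over all genes moved more: with 16α-LE2 against placebo 357 genes passed with array weights, against 27, and leaving out 1 array gave 8 (placebo 31) to 74 (estradiol 33). With the replicate block the changes with 16α-LE2 against placebo were -0.37 for Tgfbr1 and -0.26 for Ltbp1, 0 of the 8 genes passed, and 36 genes passed in all.

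The changes that turned in sign follow, and the cause was not tested. As reported, the farthest of them from 0 were Bmp4 with estradiol against placebo (-0.16) and Tgfb1 with estradiol against the beta-titled group (0.13). Array weights gave 0.006 for Tgfb1 and -0.0168 for Tgfbr3 with 16α-LE2 against the beta-titled group, -0.0633 for Tgfbr1 and -0.0459 for Tgfbr2 with 16α-LE2 against estradiol, 0.0166 for Bmp4 with estradiol against placebo. Averaging all probe sets of a gene gave 0.0113 for Tgfb2, -0.0322 for Tgfbr1, -0.0221 for Tgfbr2 and 0.0453 for Ltbp1 with 16α-LE2 against estradiol, -0.0146 for Tgfb2 and -0.0293 for Tgfbr3 with 16α-LE2 against the beta-titled group, -0.0259 for Tgfb2, 0.0028 for Tgfbr2 and -0.005 for Smad3 with estradiol against the beta-titled group, 0.0236 for Tgfbr3 and 0.0162 for Ltbp1 with the beta-titled group against placebo, 0.0627 for Smad3 with 16α-LE2 against placebo. Median centring gave 0.0061 for Tgfb2 with estradiol against placebo, 0.0285 for Tgfb3 with 16α-LE2 against estradiol, 0.0192 for Tgfbr3 and 0.0253 for Smad3 with 16α-LE2 against placebo, 0.0048 for Tgfbr3 with the beta-titled group against placebo. Quantile normalization gave 0.0096 for Tgfb2 with estradiol against placebo, 0.0258 for Tgfb3 with 16α-LE2 against estradiol, 0.0174 for Tgfbr2 and 0.11 for Tgfbr3 with the beta-titled group against placebo, 0.0922 for Tgfbr3 and 0.0078 for Smad3 with 16α-LE2 against placebo, -0.0206 for Tgfbr3 with 16α-LE2 against the beta-titled group. The replicate block gave -0.038 for Tgfb2 and 0.0392 for Tgfbr2 with 16α-LE2 against the beta-titled group, -0.0341 for Tgfb3 with the beta-titled group against placebo, 0.0428 for Tgfb3 with 16α-LE2 against estradiol, 0.0761 for Tgfbr3 and 0.0067 for Smad3 with 16α-LE2 against placebo. Leaving out 1 array in turn turned 20 changes, whose lowest and highest values follow. With 16α-LE2 against placebo they were -0.014 to 0.0236 for Tgfb1, -0.0665 to 0.0116 for Tgfbr3 and -0.0823 to 0.014 for Smad3. With the beta-titled group against placebo they were -0.0232 to 0.0662 for Tgfb1, -0.15 to 0.0244 for Tgfb2, -0.0263 to 0.0458 for Tgfb3, -0.0729 to 0.0026 for Tgfbr3 and -0.12 to 0.0147 for Ltbp1. With 16α-LE2 against the beta-titled group they were -0.0608 to 0.0287 for Tgfb1, -0.11 to 0.0599 for Tgfb2, -0.0757 to 0.019 for Tgfbr2 and -0.031 to 0.0427 for Tgfbr3. With estradiol against the beta-titled group they were -0.0043 to 0.19 for Tgfb1, -0.0292 to 0.14 for Tgfb2 and -0.0853 to 0.0154 for Tgfbr2. With estradiol against placebo they were -0.0695 to 0.0375 for Tgfb2 and -0.0227 to 0.19 for Tgfbr3. With 16α-LE2 against estradiol they were -0.0729 to 0.0448 for Tgfb3, -0.0885 to 0.0918 for Tgfbr1 and -0.0504 to 0.0502 for Tgfbr2.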
